A study of Danio rerio with 57 samples.

Results

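The genes described here are the hypoxia response and the glycolytic enzymes of the zebrafish embryo, read in the RNA of whole embryos exposed to sorafenib or rotenone. They were taken by name from a list of 49 genes grouped by function, chosen with earlier results of these data known: 10 regulators of hypoxia-inducible factor (HIF), 15 HIF targets outside glycolysis, and 24 genes of glucose uptake and glycolysis. Of these names 21 were found as such among the gene symbols, 27 were found only without the letter that tells zebrafish gene copies apart (ENO1 for both eno1a and eno1b, for instance), and pgk1 was not matched. The list came to 53 of the 32520 genes of the count table: 11 regulators, 17 targets and 25 glycolysis genes. Where a symbol stands for several copies, the gene identifier is given, since the symbol does not say which copy is meant. One copy of EGLN1 (ENSDARG00000105156) had 0 reads in all 55 libraries, and the remaining 52 genes passed the filter on low counts and were tested.

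Wild-type OBI/WIK embryos were kept at 26 °C and were pooled at harvest into samples of 20 whole embryos (called pools here), whose RNA was sequenced. All exposures, the DMSO controls included, took place in small closed vials in 0.01% DMSO. Embryos of the late exposure were held in larger groups in water alone before it began. In the late exposure, which began at 24 h post-fertilisation (hpf), pools received DMSO alone, sorafenib at 1.3 or 2.4 µM, or rotenone at 25 or 50 nM, and were collected at 36, 48 or 96 hpf, with 3 pools per group except for 2 in DMSO at 48 hpf. In the early exposure, labelled as starting at 0 hpf and described in the study's methods as starting at 2 hpf, pools received DMSO (3 pools), 2.4 µM sorafenib (4 pools) or 25 nM rotenone (4 pools) and were collected at 96 hpf. Nothing in the labels says whether the pools of a group came from separate spawnings, so every p-value measures the spread between these pools only.

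Sorafenib is a kinase inhibitor that blocks, among others, the receptors for vascular endothelial growth factor. Rotenone blocks complex I of the mitochondrial respiratory chain, and cells that cannot respire depend on glycolysis for ATP. HIF is made of an alpha subunit (HIF1A and EPAS1, with further copies in fish) and a partner that is always present. With oxygen, the prolyl hydroxylases EGLN1, EGLN2 and EGLN3 mark the alpha subunit, and the VHL protein has it destroyed. When oxygen is short the alpha subunit accumulates and switches on genes such as those for adrenomedullin, erythropoietin, glucose transporters and glycolytic enzymes. Glycolysis genes also follow tissue: retina, muscle and brain use different copies of the same enzyme. In whole embryos, fewer cells of a type and less RNA per cell cannot be told apart.

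The 55 libraries held 20609990 to 86897183 counted reads, with a median of 42602706. Levels are given as CPM, the counts of a library scaled to a common library size with TMM factors, and each is a single library unless stated otherwise. Changes are log2 fold changes from 1 edgeR quasi-likelihood fit over all groups. The value after ± is an approximate standard error, the size of the change divided by the square root of its F statistic. A gene is said to have risen or fallen where its p-value, adjusted by Benjamini-Hochberg over all 24246 genes tested, was under 0.05. Of these libraries 3 stood apart from their groups: replicate 16 (2.4 µM sorafenib, 36 hpf), replicate 37 (50 nM rotenone, 36 hpf) and replicate 49 (25 nM rotenone, 48 hpf). The median absolute deviation from the other libraries of the group, over all genes, was 0.66, 0.48 and 0.36 on the log2 scale, against 0.0857 to 0.215 in the 46 libraries of the groups without them. Counts for the comparisons that hold one of them are given with and without it.

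More of these genes passed the test between ages than between any exposure and its DMSO. Between 36 and 48 hpf in DMSO, 30 of the 52 genes rose and 2 fell, with a median change of 0.64 on the log2 scale against 0.04 over all genes, of which 33.8% were called, 21.1% as higher and 12.7% as lower. All 3 roles took part, with 5 of 10 regulators, 10 of 17 targets and 15 of 25 glycolysis genes higher. The most changed was NDRG1 (ENSDARG00000010420), a HIF target, which stood at 0.255, 0.486 and 0.408 CPM at 36 hpf and at 15.4 and 21.0 CPM at 48 hpf. Its log2 change was 5.57 ± 0.32 (adjusted p = 3.87e-18, edgeR), and no library of one age came near the other. PDK2 (ENSDARG00000059054), a kinase that closes the pyruvate dehydrogenase gate into the mitochondrion, went from 0.348, 0.189 and 0.295 CPM to 2.48 and 3.23 CPM, a change of 3.33 ± 0.43 (adjusted p = 2.24e-08). PKM (ENSDARG00000099860), a pyruvate kinase, rose from 26.1, 20.2 and 20.8 CPM to 173 and 212 CPM, by 3.10 ± 0.21 (adjusted p = 6.15e-16). ANKRD37, a small ankyrin repeat protein and HIF target, rose from 5.78, 5.91 and 9.55 CPM to 60.7 and 55.8 CPM, by 3.04 ± 0.30 (adjusted p = 4.97e-11). In each of these genes the 2 groups did not overlap.

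The 2 genes that fell between 36 and 48 hpf both act at the entry of glucose. SLC2A1 (ENSDARG00000001437), a glucose transporter, went from 17.3, 19.2 and 21.8 CPM to 6.59 and 5.81 CPM, a change of -1.65 ± 0.39 (adjusted p = 8.98e-04, edgeR). The other SLC2A1 copy (ENSDARG00000007412) moved the opposite way, by 1.38 ± 0.36 (adjusted p = 0.00234). HK2, one of the hexokinases that trap glucose in the cell, went from 18.3, 18.4 and 21.2 CPM to 14.6 and 15.4 CPM, by -0.37 ± 0.11 (adjusted p = 0.00926). Among the regulators, hif1aa rose by 1.45 ± 0.17 and EGLN3, an oxygen-sensing hydroxylase that is itself a HIF target, rose by 2.71 ± 0.34. Of 53 further hypoxia genes outside the list, 25 rose and 4 fell, among them GYS1, the muscle glycogen synthase, at 1.28, and HMOX1, a heme-degrading enzyme, at -0.82. Of 49 further glycolysis genes 20 rose and 4 fell, among them both copies of PFKM, the muscle phosphofructokinase, at 2.22 and 1.49, and fbp1b, an enzyme of the reverse route, at -0.82. Over the same step 12 of 13 fast muscle markers rose, with a median change of 1.15, and their part in these changes was not tested.

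From 48 to 96 hpf glycolysis went on rising, with 22 of 25 genes higher and 1 lower and a median change of 1.23. The 17 targets divided into 7 that rose and 5 that fell, with a median of 0.17, and the 10 regulators into 4 and 2. The shares of targets and regulators lay nearer those of all genes than the glycolysis share did. The difference between roles was not tested. Over all genes 58.6% were called, 32.3% as higher and 26.3% as lower, and the median was 0.08, against 33 genes higher and 8 lower of the 52 listed and a median of 0.76. ENO1 (ENSDARG00000013750), an enolase, went from 4.08 and 3.77 CPM at 48 hpf to 67.0, 80.9 and 74.9 CPM at 96 hpf, by 4.24 ± 0.20 (adjusted p = 4.02e-22, edgeR). PDK2 (ENSDARG00000059054) rose again, to 94.5, 112 and 121 CPM, by 5.26 ± 0.33 (adjusted p = 7.12e-18). ALDOC (ENSDARG00000019702), an aldolase typical of brain and retina, went from 81.9 and 89.03 CPM to 549, 573 and 526 CPM, by 2.68 ± 0.18 (adjusted p = 3.30e-17). The second ALDOC copy (ENSDARG00000057661) was all but silent at 48 hpf, with 3 reads over both libraries, or 0.0264 and 0.0567 CPM, and reached 11.2, 10.8 and 11.1 CPM at 96 hpf. This is a ratio of 269 from reads pooled over libraries, with an exact 95% interval of 91.8 to 1305 that covers counting error only. The gene counts among the 22 called higher. It met the filter on low counts through groups where it is high, not through 48 hpf, so its p-value is not given.

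The 5 targets that fell after 48 hpf, of 17, are a share close to the 26.3% lower over all genes, and 4 of them are given here. DDIT4, an inhibitor of mTOR signalling, was at 82.6, 80.4 and 75.0 CPM at 36 hpf, at 239 and 229 CPM at 48 hpf, and at 60.4, 60.9 and 61.3 CPM at 96 hpf, a change of -1.94 ± 0.22 over the second step (adjusted p = 3.70e-10, edgeR). CITED2, a HIF target whose protein competes with HIF for its co-activator, followed the same course, from 33.1, 28.1 and 35.8 CPM to 96.9 and 96.7 CPM and down to 47.1, 42.5 and 43.6 CPM, by -1.13 ± 0.14 (adjusted p = 6.20e-09). MXI1, a MYC antagonist, went from 174 and 172 CPM at 48 hpf to 89.3, 89.8 and 83.98 CPM at 96 hpf, by -0.98 ± 0.10 (adjusted p = 2.32e-11). The fourth was epoa, the hormone that drives red cell formation, with 2.71 and 2.21 CPM at 48 hpf and 0.962, 0.830 and 0.731 CPM at 96 hpf, a change of -1.55 ± 0.30 (adjusted p = 1.63e-05). In all 4 of these genes every library at 48 hpf lay above every library at 96 hpf.

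The same step changed the cell types that whole-embryo RNA reports on. Photoreceptor markers, as a summed level over 15 genes, were at 16.4 to 19.0 CPM at 48 hpf and 4358 to 4956 CPM at 96 hpf in DMSO, with 13 of 15 called and a median change of 8.11. Red blood cell markers went the other way, from 3980 to 4317 CPM down to 573 to 668 CPM, with 6 of 7 lower. The part of either in the rise of ENO1, ALDOC and PDK2 or in the fall of epoa was not tested. Of the further hypoxia genes 22 rose and 16 fell, among them LOX, which crosslinks collagen, at 4.49, NGB, the neuronal globin, at 3.01, and NOTCH1 at -3.32. Of the further glycolysis genes 32 rose and 3 fell, among them ldhbb, a lactate dehydrogenase, at 4.21, eno2, the neuronal enolase, at 2.50, and ENO4 at -1.15.

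**Figure D1:**
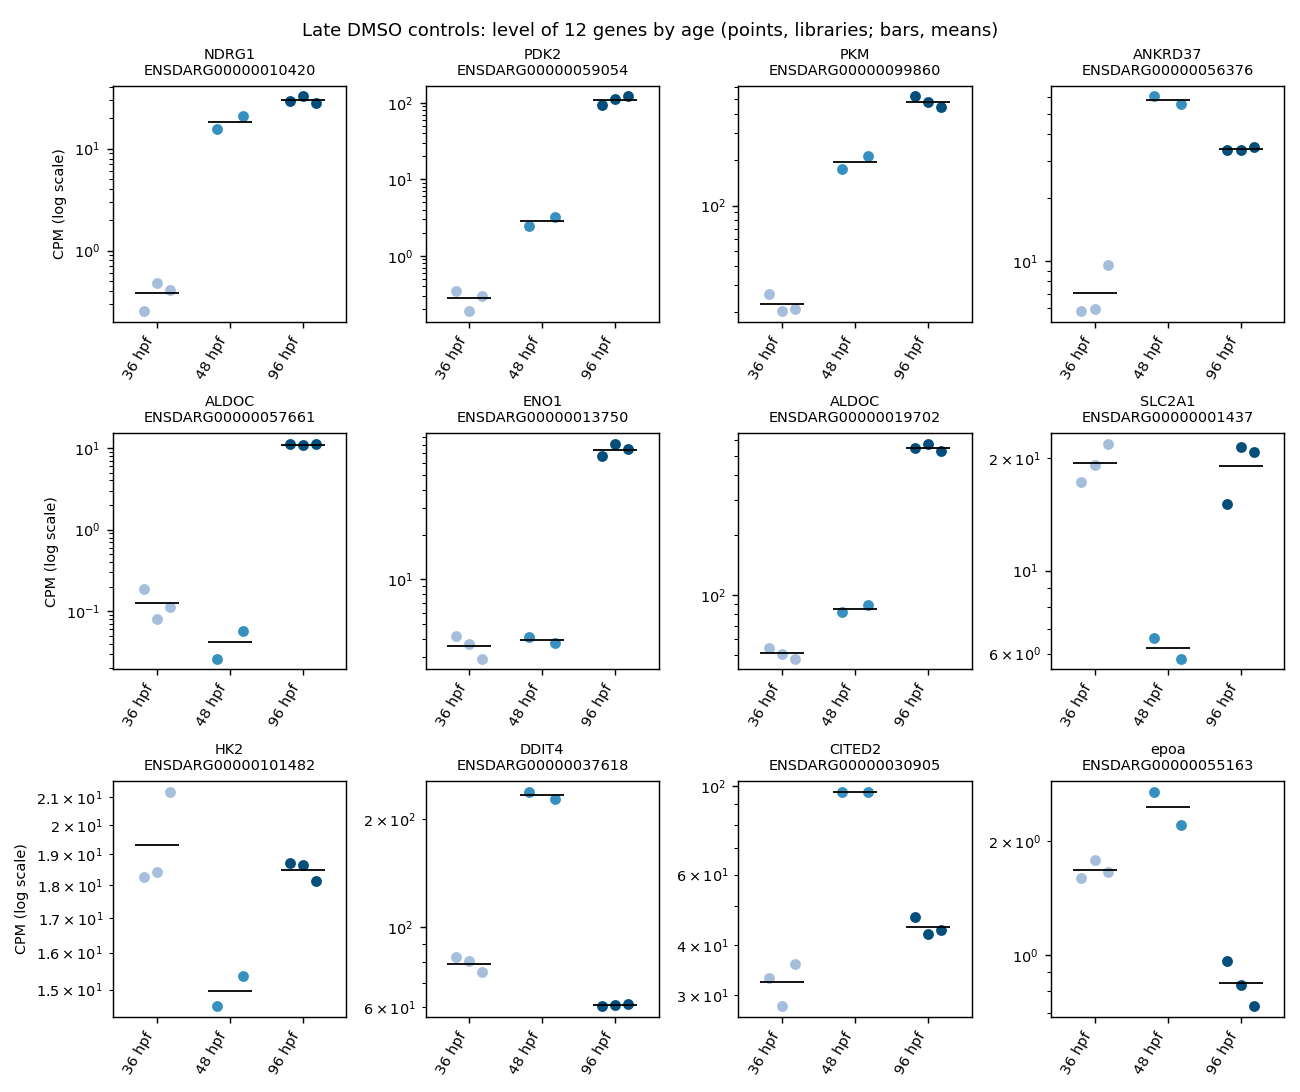
Level of 12 of the 13 genes given by library for the steps in age (CPM, log axis, MXI1 is left out) in each late DMSO library at 36, 48 and 96 hpf, with a bar at the group mean. Genes named there without library values, such as SLC2A1 (ENSDARG00000007412), are not shown. ALDOC (ENSDARG00000057661), ENO1 (ENSDARG00000013750) and PDK2 (ENSDARG00000059054) sit highest at 96 hpf, while DDIT4, CITED2, epoa and ANKRD37 peak at 48 hpf.

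Against this background of development, the substances changed the genes in few of the 14 comparisons with DMSO of the same start and age. Of the 52 genes tested 31 were called in at least 1 of them (4 of 10 regulators, 10 of 17 targets and 17 of 25 glycolysis genes), where 22.1% of all genes were, and 21 in none. Members were called in 4 comparisons: both higher doses at 36 hpf, 50 nM rotenone at 48 hpf and 2.4 µM sorafenib at 96 hpf, all from the late exposure. The other 10 gave no call in the fit over all groups, nor by DESeq2. Fitting only the groups compared gave 3 to 8 calls in 4 of these 10, which are named with their counts beside each result.

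**Figure D2:**
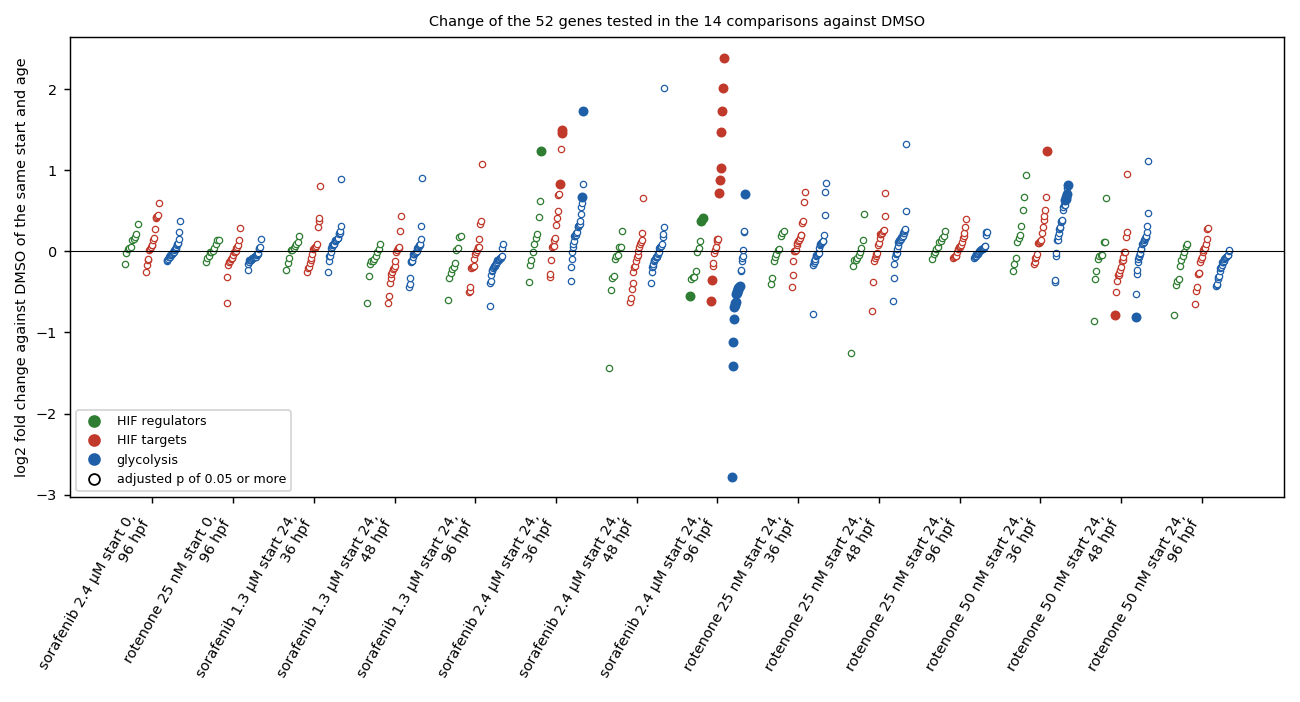
Log2 fold change of each gene against DMSO of the same start and age (vertical axis), in the 14 comparisons (horizontal axis). Each point is a gene, coloured by role, filled where the adjusted p was under 0.05. The filled points lie in 4 comparisons, and at 96 hpf in 2.4 µM sorafenib the filled glycolysis genes lie mostly below 0 and the filled targets mostly above.

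After 12 h of late exposure, at 36 hpf, 2.4 µM sorafenib raised 6 of the 52 genes and lowered none, and 3 of these were HIF targets. The median over the 52 was 0.22, against 0.06 over all genes, of which 2.23% were called, 1.7% as higher. DDIT4 was at 338, 169 and 147 CPM in the 3 sorafenib libraries and at 82.6, 80.4 and 75.0 CPM in DMSO, an increase of 1.45 ± 0.21 (adjusted p = 2.37e-05, edgeR). CITED2 was at 74.8, 49.7 and 48.6 CPM against 33.1, 28.1 and 35.8 CPM, higher by 0.83 ± 0.13 (adjusted p = 2.05e-04). ANKRD37 was at 31.6, 15.8 and 13.1 CPM against 5.78, 5.91 and 9.55 CPM, higher by 1.49 ± 0.28 (adjusted p = 0.00178). For these 3 genes the groups did not overlap, and the first library in each list, replicate 16, was the highest. EGLN3 was at 30.8, 10.4 and 8.70 CPM against 6.26, 4.72 and 9.80 CPM, so that 1 sorafenib library lay inside the DMSO range, and its change was 1.23 ± 0.32 (adjusted p = 0.0288). The other 2 were glycolysis genes, PDK2 (ENSDARG00000059054) at 1.73 ± 0.48 and PKM (ENSDARG00000099860) at 0.67 ± 0.19.

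Without replicate 16 DDIT4, CITED2 and ANKRD37 stayed called at 0.99, 0.60 and 1.02, EPAS1 (ENSDARG00000057671), a HIF alpha subunit, was called at 0.42, and the other 3 genes were not. Of these EGLN3 came to 0.46, while PDK2 (ENSDARG00000059054) stood at 1.54 and PKM (ENSDARG00000099860) at 0.52, closer to their values with all libraries. Without sorafenib replicate 18 or 20 the 6 became 12 or 14, without DMSO replicate 28 or 29 they became 3, namely DDIT4, CITED2 and ANKRD37 each time, and fitting only the groups compared left 0 called by edgeR, while DESeq2 called 9. Replicate 16 also carried more RNA of differentiated tissue, and replicate 18 did so to a lesser degree. The summed level of 13 fast muscle markers was 49437, 32881 and 27534 CPM in replicates 16, 18 and 20. In DMSO it was 25498 to 29432 CPM. That of 9 liver markers was 11784, 5998 and 5746 CPM against 5521 to 5860 CPM. That of 7 red blood cell markers was 8122, 2748 and 2571 CPM against 2222 to 2585 CPM. With all libraries 6 of the 13 muscle markers (median change 0.66), 1 of the 9 liver and 1 of the 7 red blood cell markers were called higher. The part of these markers in the 6 calls was not tested. Endothelial markers were lower in every sorafenib library, at 99.2 to 103 CPM against 130 to 142 CPM over 7 genes, 4 of them called. Among the further hypoxia genes 5 rose, led by insig1, a brake on sterol synthesis, at 1.27, and ANGPTL4, a lipase inhibitor, at 0.73. Of the further glycolysis genes 2 rose, the fructose bisphosphatase FBP2 at 0.79 and PFKM (ENSDARG00000060797) at 0.45.

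At the same age 50 nM rotenone raised 5 glycolysis genes and 1 target, of which only the target was called without replicate 37. The median change was 0.28 over the 52 genes and 0.37 over the 25 glycolysis genes, against 0.04 over all genes, of which 0.396% were called, 0.301% as higher. IGFBP1, the insulin-like growth factor binding protein that HIF induces, was at 17.4, 22.9 and 23.2 CPM in rotenone and at 9.37, 7.21 and 10.3 CPM in DMSO, higher by 1.24 ± 0.24 (adjusted p = 0.0117, edgeR). GPI (ENSDARG00000012987), glucose-6-phosphate isomerase, was at 90.0, 41.3 and 47.4 CPM against 39.3, 32.4 and 37.5 CPM, by 0.71 ± 0.14 (adjusted p = 0.0128). GAPDHS, a glyceraldehyde-3-phosphate dehydrogenase, was at 219, 112 and 122 CPM against 103, 94.3 and 91.5 CPM, by 0.65 ± 0.15 (adjusted p = 0.0287). The phosphoglycerate mutase pgam1b was at 45.4, 20.9 and 20.0 CPM against 18.5, 17.0 and 18.4 CPM, by 0.67 ± 0.15 (adjusted p = 0.0287). In the 3 enzymes replicate 37, listed first, was far above the other 2 rotenone libraries, which lay above DMSO by a small margin.

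PKM (ENSDARG00000099860) at 0.82 ± 0.19 and ENO1 (ENSDARG00000022456) at 0.63 ± 0.15 made up the 6 genes in 50 nM rotenone at 36 hpf. This PKM copy was also among the 6 in sorafenib, at 0.67, against the same DMSO libraries. Without replicate 37 IGFBP1 alone was called, at 1.36 (adjusted p = 0.022), and GPI (ENSDARG00000012987), GAPDHS, pgam1b, ENO1 (ENSDARG00000022456) and PKM (ENSDARG00000099860) came to 0.29, 0.28, 0.19, 0.19 and 0.34. Without DMSO replicate 28, 29 or 30 the count was 2, 0 or 1, without rotenone replicate 38 or 40 it was 15, fitting only the groups compared left 0, and DESeq2 called 10. Summed fast muscle markers were at 58906 CPM in replicate 37 and at 27292 and 29576 CPM in the other rotenone libraries, against 25498 to 29432 CPM in DMSO. All 13 had a positive change and none was called. Replicate 37 also had more of the liver markers (8947 CPM against 5659 and 5460 CPM in the other rotenone libraries) and red blood cell markers (5267 against 2314 and 2309 CPM). Its endothelial markers were lower (102 against 134 and 131 CPM). The part of these markers in the glycolysis changes was not tested. Among the further hypoxia genes P4HA2, a collagen prolyl hydroxylase, rose by 0.63 and STC2, a secreted glycoprotein, by 0.82. At 25 nM rotenone and at 1.3 µM sorafenib no listed gene was called at 36 hpf (0.0866% and 0.0454% of all genes), and DESeq2 called 0 in each. An unadjusted p under 0.05 by edgeR was found for 5 and 0 of the 52 genes, and for 2008 and 854 of all 24246. For 25 nM rotenone 8 genes were called when only the groups compared were fitted and 4 without replicates 16, 37 and 49, and for 1.3 µM sorafenib 0 under both.

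**Figure D3:**
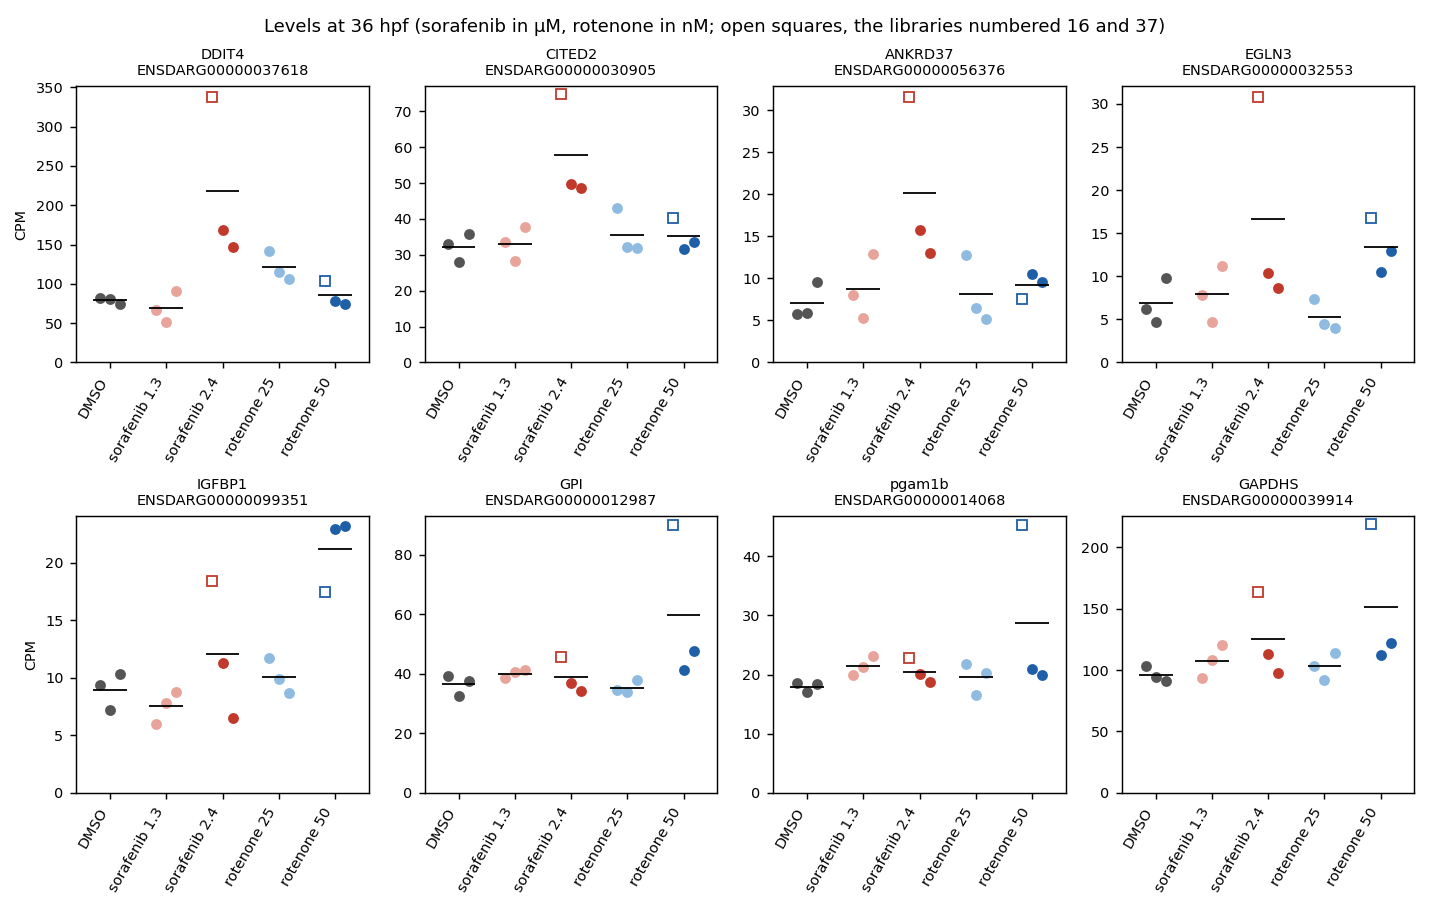
Level (CPM) in each library of the late exposure at 36 hpf of the 8 genes with the lowest p in 2.4 µM sorafenib or 50 nM rotenone, by group, with a bar at the group mean and open squares for replicates 16 and 37. DDIT4, CITED2 and ANKRD37 are raised in all 3 libraries of 2.4 µM sorafenib, IGFBP1 in all 3 of 50 nM rotenone, and GPI, GAPDHS and pgam1b chiefly in 1 rotenone library.

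The 2 substances at their higher doses were compared directly at 36 hpf, where 10 of the 52 genes differed and 9.56% of all genes were called. DDIT4, CITED2 and ANKRD37 were higher in sorafenib than in rotenone by 1.35 ± 0.20, 0.71 ± 0.13 and 1.11 ± 0.28, together with PFKFB4, which makes a regulator of phosphofructokinase, at 0.32 ± 0.10. GPI (ENSDARG00000012987), pgam1b, ALDOC (ENSDARG00000019702), HK2, IGFBP1 and HIF1A were lower in sorafenib, by -0.61 ± 0.14, -0.48 ± 0.15, -0.45 ± 0.14, -0.33 ± 0.10, -0.84 ± 0.24 and -0.48 ± 0.12. Both arms of this contrast hold a library that stood apart, and without rotenone replicate 37 the 10 became 2, DDIT4 and CITED2. Without sorafenib replicate 16 they became 15, 4 higher and 11 lower in sorafenib, with DDIT4 at 0.89, CITED2 at 0.49, GPI (ENSDARG00000012987) at -0.74 and IGFBP1 at -1.25, and ANKRD37 was not among them. Without replicate 38 or 40 the count was 18, and with only the groups compared it was 0.

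At 48 hpf, after 24 h of late exposure, none of the genes called at 36 hpf in the same exposure was called, a difference between ages that was not tested. With 2.4 µM sorafenib no gene of the list was called (0.404% of all genes were), and DESeq2 called 0. Of the 52 genes 7 had an unadjusted p under 0.05 by edgeR, as did 1213 of all 24246 genes. The count called was 4 when only the groups compared were fitted and 1 with the omitted DMSO library of this age added back. In the same libraries 6 of 7 endothelial markers fell, from 158 to 161 CPM in DMSO to 71.3 to 109 CPM. CITED2 was at 106, 104 and 103 CPM in sorafenib and at 96.9 and 96.7 CPM in DMSO. Of the further hypoxia genes insig1 rose by 1.33 and STC2 by 0.99. With 1.3 µM sorafenib and 25 nM rotenone 0 genes of the list were called (0.181% and 0% of all genes), and DESeq2 called 0 in each. An unadjusted p under 0.05 by edgeR was found for 3 and 4 genes of the list, and for 1006 and 1792 of all 24246. For 1.3 µM sorafenib the count was 3 with only the groups compared and 1 with the omitted library, and for 25 nM rotenone it was 0 in both and 0 without replicate 49.

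With 50 nM rotenone at 48 hpf 2 genes of the list fell and none rose, where 0.0866% of all genes were called, 0.0247% as lower. CITED2 was at 59.7, 61.9 and 46.9 CPM against 96.9 and 96.7 CPM in DMSO, lower by -0.79 ± 0.15 (adjusted p = 0.00642, edgeR). PFKFB3, which makes the activator of phosphofructokinase, was at 26.5, 29.6 and 17.0 CPM against 41.8 and 43.4 CPM, lower by -0.81 ± 0.18 (adjusted p = 0.0458). The groups did not overlap in either gene. Neither was called without DMSO replicate 54 or 55 or rotenone replicate 64 or with only the groups compared, 1 was called without rotenone replicate 61, and the DMSO group had 2 libraries. STC2 rose by 1.19 at this dose. Between sorafenib and rotenone at the higher doses 2 genes differed at 48 hpf (1.97% of all genes), CITED2 by 0.89 ± 0.13 and EGLN2, a HIF prolyl hydroxylase, by -2.10 ± 0.44. EGLN2 was low in all groups, at 1.20, 0.631 and 1.35 CPM in sorafenib and 4.88, 6.25 and 2.56 CPM in rotenone.

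At 96 hpf, after 72 h of late exposure, 2.4 µM sorafenib produced the broadest change of the 14 comparisons. Glycolysis genes fell and a group of HIF targets rose: 15 of 25 glycolysis genes were lower and 1 higher (median -0.45), and 7 of 17 targets were higher and 2 lower (median 0.15). Over the 52 genes 18 fell and 10 rose with a median of -0.16, where 19.9% of all genes were called, 12.8% as lower and 7.11% as higher, with a median of -0.07.

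The enzymes that fell span the pathway from glucose entry to lactate. SLC2A1 (ENSDARG00000001437) was at 4.89, 2.27 and 1.23 CPM in sorafenib and at 15.1, 21.5 and 20.7 CPM in DMSO, a change of -2.78 ± 0.36 (adjusted p = 9.46e-08, edgeR). ENO1 (ENSDARG00000013750) was at 30.4, 27.8 and 25.1 CPM against 67.0, 80.9 and 74.9 CPM, lower by -1.42 ± 0.14 (adjusted p = 4.97e-10). LDHA, the lactate dehydrogenase that regenerates NAD+, was at 289, 273 and 268 CPM against 440, 445 and 431 CPM, lower by -0.67 ± 0.09 (adjusted p = 9.29e-08). ALDOC (ENSDARG00000019702) was at 345, 284 and 292 CPM against 549, 573 and 526 CPM, lower by -0.84 ± 0.14 (adjusted p = 1.86e-05). In none of the 4 did the groups overlap, and the sorafenib libraries lay within a narrow band except in SLC2A1, where they differed several-fold.

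The other decreases ran through HK1 at -0.43 ± 0.08, GPI (ENSDARG00000012987) at -0.49 ± 0.14, ALDOA (ENSDARG00000011665) at -0.42 ± 0.13, ALDOC (ENSDARG00000057661) at -1.12 ± 0.22, TPI1 (ENSDARG00000040988) at -0.51 ± 0.16 and GAPDHS at -0.53 ± 0.15. Further down the pathway pgam1a changed by -0.63 ± 0.12, pgam1b by -0.68 ± 0.15, ENO1 (ENSDARG00000022456) by -0.45 ± 0.15, PKM (ENSDARG00000099730) by -0.48 ± 0.14 and PDK2 (ENSDARG00000059054) by -0.64 ± 0.22. PFKFB3 was the exception, higher by 0.71 ± 0.16 (adjusted p = 7.28e-04, edgeR). SLC2A1 (ENSDARG00000007412) was at 0.01, PKM (ENSDARG00000099860) at -0.08, ALDOA (ENSDARG00000034470) at -0.06 and GAPDH at 0.24, and none of these was called. In SLC2A1, PKM, ALDOA, GPI, TPI1 and PDK2 1 of 2 copies passed the test, and the difference between copies was not itself tested.

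Of the 7 targets that rose, the 4 with the lowest p are given by library. ADM (ENSDARG00000015263), the vasodilator adrenomedullin, was at 22.7, 49.3 and 46.9 CPM in sorafenib and at 7.79, 7.30 and 7.66 CPM in DMSO, an increase of 2.39 ± 0.26 (adjusted p = 2.64e-09, edgeR). The second ADM copy (ENSDARG00000069027) was at 20.1, 25.3 and 25.0 CPM against 6.56, 5.22 and 5.58 CPM, higher by 2.02 ± 0.27 (adjusted p = 2.13e-07). IGFBP1 was at 124, 170 and 164 CPM against 44.5, 49.6 and 43.4 CPM, by 1.74 ± 0.24 (adjusted p = 2.68e-07). ERRFI1, a feedback inhibitor of the epidermal growth factor receptor, was at 37.0, 42.8 and 50.4 CPM against 24.3, 24.3 and 22.2 CPM, by 0.88 ± 0.11 (adjusted p = 2.30e-08). In all 4 genes each sorafenib library exceeded each DMSO library.

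The second IGFBP1 copy, igfbp1b, rose by 1.48 ± 0.25, DDIT4 by 1.02 ± 0.20 and CITED2 by 0.72 ± 0.13, while P4HA1, a collagen prolyl hydroxylase, and MXI1 fell, by -0.62 ± 0.15 and -0.35 ± 0.09. ANKRD37 and EGLN3, both raised at 36 hpf, were at -0.14 and 0.12 and not called. Among the regulators hif1al, a HIF alpha-like gene, rose by 0.38 ± 0.11 and EPAS1 (ENSDARG00000008697) by 0.41 ± 0.14, whereas hif1aa fell by 0.55 on the log2 scale with a standard error of 0.14. The regulator vhl was at -0.31 and EGLN2 at 0.04, neither called. The remaining targets, among them epoa, both copies of BNIP3L and both of NDRG1, did not pass the test.

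**Figure D4:**
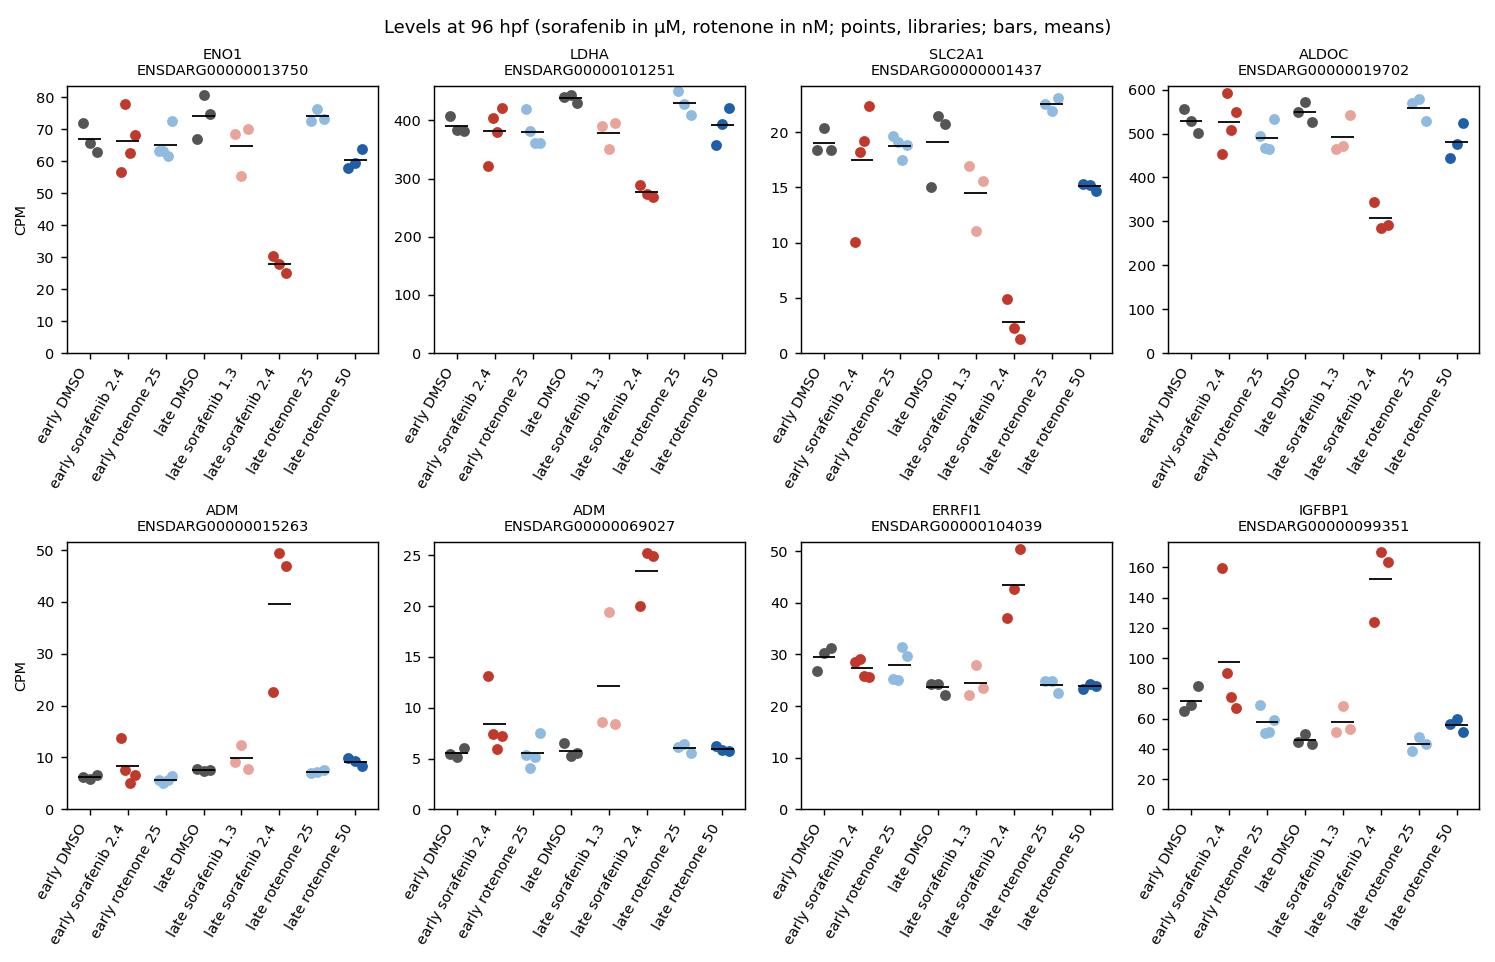
Level (CPM) at 96 hpf of the 4 genes that fell and the 4 that rose with the lowest p in 2.4 µM sorafenib, in every library of the early and late exposures, by group, with a bar at the group mean. The late 2.4 µM sorafenib libraries stand apart from DMSO in all 8 genes, and the late 1.3 µM, rotenone and early sorafenib libraries lie mostly at the DMSO level.

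Other cell types moved in the same libraries. All 15 photoreceptor markers fell, with a median of -2.15, and their summed level was 447 to 1381 CPM in sorafenib against 4358 to 4956 CPM in DMSO. Liver markers were at 4428 to 6297 CPM against 3980 to 4351 CPM (4 of 9 higher), red blood cell markers at 554 to 769 CPM against 573 to 668 CPM (3 of 7 higher) and endothelial markers at 135 to 153 CPM against 172 to 179 CPM (2 of 7 lower). Fast muscle markers were at 49825 to 55301 CPM against 51273 to 55197 CPM. Their part in the changes of the listed genes was not tested. Outside the list, 17 of 49 further glycolysis genes fell and 4 rose, among them pdha1b, a subunit of pyruvate dehydrogenase, at -2.12 and 2 copies of a neuronal-type glucose transporter, slc2a3a at -0.75 and slc2a3b at 1.82. Of 53 further hypoxia genes 12 rose and 6 fell, among them DUSP1, a MAP kinase phosphatase, at 1.28, NGB at -0.82 and cygb2, a cytoglobin, at -0.90.

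From 23 to 30 genes were called when 1 library was left out, 23 of the 28 in every such fit, and 24 of the 28 under every other setting tried. At 1.3 µM no gene of the list was called (0.0206% of all genes), and DESeq2 called 0. Of the 52 genes 13 had an unadjusted p under 0.05 by edgeR, as did 940 of all 24246 genes. The difference was negative for 39 of the 52 genes and for 23 of the 25 glycolysis genes, where 42.8% of all genes had a positive one. The median was -0.14 against -0.03 over all genes, and all changes lay between -0.67 and 1.08. The extremes at this dose were PDK2 (ENSDARG00000059054) and ADM (ENSDARG00000069027), the latter at 8.64, 19.5 and 8.38 CPM. SLC2A1 (ENSDARG00000001437) stood at 16.9, 11.1 and 15.6 CPM and ENO1 (ENSDARG00000013750) at 68.6, 55.5 and 70.1 CPM, overlapping DMSO in both.

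The doses differed when tested against each other. At 96 hpf 12 genes were higher and 11 lower at 2.4 than at 1.3 µM (16.3% of all genes were called), with ENO1 (ENSDARG00000013750) at -1.22 ± 0.14, SLC2A1 (ENSDARG00000001437) at -2.38 ± 0.36, LDHA at -0.45 ± 0.09, ADM (ENSDARG00000015263) at 2.01 ± 0.26, PFKFB3 at 1.08 ± 0.16 and ERRFI1 at 0.82 ± 0.11. Of the 25 glycolysis genes 10 were lower and 2 higher, PFKFB3 and HK2, and of the 17 targets 9 were higher and none lower. Without replicate 85 of the lower dose or 69 of the higher the 23 became 15. At 36 hpf the 3 genes that differed were DDIT4 by 1.65 ± 0.21, CITED2 by 0.80 ± 0.13 and ANKRD37 by 1.19 ± 0.28 (0.705% of all genes). Without sorafenib replicate 16 DDIT4 and CITED2 were called, at 1.18 and 0.57. Without replicate 18 or 20 the 3 became 8 or 10, without replicate 32 of the lower dose 1, and with only the groups compared 0. At 48 hpf 0 genes differed by edgeR or DESeq2 (0.00412% of all genes).

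No gene of the list was called in late rotenone at 96 hpf. As in late 1.3 µM sorafenib, which was compared with the same DMSO libraries, most lay slightly lower at 50 nM. At this dose 0.00412% of all genes were called, 12 of the 52 genes had an unadjusted p under 0.05 by edgeR, as did 853 of all 24246 genes, and DESeq2 called 0, while 4 were called when only the groups compared were fitted and 3 without replicates 16, 37 and 49. The difference was negative for 42 of the 52 genes and for 24 of the 25 glycolysis genes, where 47.1% of all genes had a positive one. Changes ran from -0.79 to 0.29, those of EGLN3 and IGFBP1, with a median of -0.13 against -0.01 over all genes. P4HA1 had the lowest p, with 46.7, 52.1 and 44.9 CPM against 72.8, 74.8 and 77.5 CPM, a change of -0.65 (adjusted p = 0.39, edgeR) in which the groups did not overlap. At 25 nM 0 genes were called (0% of all genes), and DESeq2 called 0. In the list 1 gene had an unadjusted p under 0.05 by edgeR, as did 223 of all 24246 genes. Photoreceptor markers at 50 nM were at 3315 to 4111 CPM, below DMSO, and red blood cell markers at 830 to 1133 CPM, above it.

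The rotenone doses were also compared with each other, and the counts depended on the fit: with only the groups compared they were 0, 0 and 19 at 36, 48 and 96 hpf. In the fit over all groups at 96 hpf P4HA1, NDRG1 (ENSDARG00000032849) and the mitophagy receptor BNIP3L (ENSDARG00000028067) were lower at 50 than at 25 nM, by -0.88 ± 0.15, -0.44 ± 0.09 and -0.45 ± 0.09 (0.0701% of all genes were called, 0.0371% as lower). At 48 hpf 2 genes were higher and 5 lower (2.67% of all genes), with CITED2 at -1.001 ± 0.13, PFKFB3 at -0.99 ± 0.16, EGLN3 at -1.33 ± 0.30, ANKRD37 at -1.01 ± 0.27 and EGLN2 at 1.91 ± 0.44. At 36 hpf 12 genes were higher and none lower (5.61% of all genes were called, 3.65% as higher), with P4HA1 at 0.87 ± 0.15, GPI (ENSDARG00000012987) at 0.75 ± 0.14, ALDOA (ENSDARG00000011665) at 0.65 ± 0.13 and IGFBP1 at 1.07 ± 0.24. Without replicate 37 the 12 became 2, without replicate 38 they became 21, without any 1 of the 25 nM libraries 5 or 6, and without replicates 16, 37 and 49 together 7. The 7 genes at 48 hpf became 2 without replicate 49, and 3 or 4 without any 1 other library but replicate 47. The 3 genes at 96 hpf became 0 or 1 without any 1 library but replicate 74. For P4HA1 the change against DMSO in 50 nM rotenone was lower at 96 than at 36 hpf by 1.08 ± 0.22 (interaction of -1.08, adjusted p = 0.04, edgeR), the 1 such gene of the list (0.0371% of all genes). Age and length of exposure change together in this contrast and cannot be told apart. Without replicate 37 P4HA1 was still the 1 gene called, at -1.13. Without rotenone replicate 38 or 40 the count was 10, and without DMSO replicate 28 or 29 or any 1 library at 96 hpf it was 0.

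Sorafenib and rotenone at their higher doses differed in 22 genes at 96 hpf, 12 higher and 10 lower in sorafenib (19.2% of all genes). ADM (ENSDARG00000015263) was higher by 2.11 ± 0.26, PFKFB3 by 1.14 ± 0.16, CITED2 by 0.99 ± 0.13 and EGLN3 by 0.91 ± 0.29, while ENO1 (ENSDARG00000013750) was lower by -1.12 ± 0.14, SLC2A1 (ENSDARG00000001437) by -2.44 ± 0.36 and LDHA by -0.50 ± 0.09. The 9 targets called were all higher in sorafenib, and 10 of the 11 glycolysis genes called were lower.

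The sorafenib response differed between 36 and 96 hpf, after 12 and 72 h of exposure, so age and length of exposure cannot be told apart. Comparing the change against DMSO at 96 hpf with that at 36 hpf, 22 genes had a lower change at the later age and 5 a higher one. Over all genes 12.5% were called, 2152 with a lower and 868 with a higher change. The median was -0.51 against -0.14 over all genes. Of the 25 glycolysis genes 16 were among the 22 of the list with a lower change. Markers of other cell types moved in the same contrast, with 10 of 15 photoreceptor markers lower (median -2.72) and 6 of 13 fast muscle markers lower (median -0.49), and their part was not tested. ENO1 (ENSDARG00000013750) had an interaction of -1.47, LDHA of -0.87, TPI1 of -0.99 (ENSDARG00000025012) and -0.98 (ENSDARG00000040988), and SLC2A1 (ENSDARG00000001437) of -2.41. The 5 with a higher change were ADM (ENSDARG00000015263) at 1.89, IGFBP1 at 1.33, ERRFI1 at 1.19, PFKFB3 at 0.90 and hif1al at 0.48. ANKRD37, raised at 36 hpf, had an interaction of -1.64. Without replicate 16, 15 genes had a lower change and 6 a higher one, with ENO1 (ENSDARG00000013750) at -1.20, LDHA at -0.81 and ANKRD37 at -1.17. From 21 to 32 genes were called when 1 library was left out, and 6 when only the groups compared were fitted.

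Taken as a group, embryos exposed to the same 2.4 µM sorafenib from the start of development did not show the late fall of glycolysis genes. Their HIF targets leaned upward, but none was called. In the early exposure no gene of the list was called (0.0289% of all genes), DESeq2 called 0, and changes lay between -0.26 and 0.60. Of the 52 genes 3, all of them targets, had an unadjusted p under 0.05 by edgeR, as did 785 of all 24246 genes. The difference was positive for 13 of the 17 targets (median 0.08) and 8 of the 10 regulators (median 0.10). It was positive for 11 of the 25 glycolysis genes (median -0.01), where 44.5% of all genes had a positive one (median -0.02). SLC2A1 (ENSDARG00000001437) was at 10.0, 18.2, 19.2 and 22.4 CPM in early sorafenib against 18.4, 20.3 and 18.4 CPM in early DMSO, and ENO1 (ENSDARG00000013750) at 56.8, 77.9, 62.8 and 68.2 CPM against 72.1, 65.8 and 62.9 CPM. ADM (ENSDARG00000015263) was at 13.8, 7.53, 5.15 and 6.62 CPM against 6.18, 5.76 and 6.67 CPM. Replicate 1, listed first, was lowest in both glycolysis genes and highest in ADM, and the groups overlapped in all 3. Among the early sorafenib libraries it also had the lowest summed photoreceptor markers (2944 CPM) and the highest summed HIF targets (684 CPM). Its summed glycolysis level, 7105 CPM, lay within the range of the others.

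The difference between the 2 starts passed the test for 15 genes. The change against DMSO was higher in the early than in the late exposure for 10 genes and lower for 5 (8.03% of all genes). Over all 24246 genes it was higher for 1318 and lower for 629, so higher changes also prevailed outside the list. Of the 25 glycolysis genes 9 had the higher change and none the lower, led by ENO1 (ENSDARG00000013750) at 1.41 ± 0.20, SLC2A1 (ENSDARG00000001437) at 2.65 ± 0.47 and LDHA at 0.63 ± 0.12. The 5 with the lower change were targets: ADM (ENSDARG00000015263) at -1.97 ± 0.35, ADM (ENSDARG00000069027) at -1.42 ± 0.36, IGFBP1 at -1.29 ± 0.31, ERRFI1 at -0.99 ± 0.14 and CITED2 at -0.59 ± 0.18. Without early DMSO replicate 12 or late sorafenib replicate 70 the 15 became 9. Photoreceptor markers, at 2944 to 5206 CPM in early sorafenib and 4270 to 4854 CPM in early DMSO, differed between starts too, with 14 of 15 called. Whether embryos of both starts came from the same spawnings is not given in the sources used here, so the start and the spawning cannot be told apart. Early embryos also spent longer in closed vials and in DMSO, which cannot be told apart from the start either.

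In early rotenone at 25 nM 0 genes of the list were called (0% of all genes), DESeq2 called 0, and changes ran from -0.63 to 0.29. The difference was negative for 37 of the 52 genes and for 21 of the 25 glycolysis genes, where 45.9% of all genes had a positive one. The median was -0.06 against -0.01 over all genes. In the list 1 gene had an unadjusted p under 0.05 by edgeR, as did 306 of all 24246 genes. For no gene of the list was the change called different between starts (0 by edgeR or DESeq2). At an unadjusted p under 0.05 by edgeR it was 1 gene, and 316 of all 24246. The change was lower in the early exposure for 40 of the 52 genes, where 47.6% of all genes had a higher one.

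The DMSO embryos of the 2 starts, both at 96 hpf, differed in part of the list. They also differed in the time spent in closed vials and in DMSO, which cannot be told apart from the start. Whether they came from the same spawnings is not given, so the spawning cannot be told apart from the start either. In all 8 of the 52 genes were lower in the early than in the late exposure and none higher, where 0.458% of all genes were called, 0.169% as lower. Of the 8, 5 were targets, 2 regulators and 1 a glycolysis gene. P4HA1 was at 27.0, 27.2 and 31.6 CPM in the early exposure and at 72.8, 74.8 and 77.5 CPM in the late one, a difference of -1.39 ± 0.15 (adjusted p = 5.0e-07, edgeR). EGLN3 was at 13.4, 16.8 and 12.9 CPM against 61.8, 62.1 and 58.7 CPM, a difference of -2.09 ± 0.31 (adjusted p = 1.6e-04). ANKRD37 was at 10.4, 11.3 and 10.2 CPM against 33.8, 33.7 and 34.8 CPM, lower by -1.68 ± 0.27 (adjusted p = 6.3e-04). NDRG1 (ENSDARG00000032849) was at 124, 116 and 127 CPM against 167, 180 and 168 CPM, lower by -0.49 ± 0.09 (adjusted p = 0.0019). None of these groups overlapped.

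The other 4 were CITED2 at -0.75 ± 0.13, PFKFB3 at -0.83 ± 0.16, vhl at -0.81 ± 0.16 and NDRG1 (ENSDARG00000010420) at -0.92 ± 0.22. For vhl the early libraries were at 8.05, 8.31 and 8.21 CPM and the late ones at 14.7, 13.8 and 14.7 CPM, again without overlap. In 27 of the 52 genes all early libraries lay below all late ones and in 6 above, against 13.1% and 9.63% of all genes, and the median difference was -0.16 against -0.02 over all genes. From 6 to 8 genes were called when 1 library was left out, 14 without replicates 16, 37 and 49, and 17 when only the groups compared were fitted. Of the further hypoxia genes HIF1AN, the asparagine hydroxylase that also restrains HIF, was lower by -0.64 and VEGFA (ENSDARG00000034700) by -0.45. Of the further glycolysis genes 1 was called higher and 1 lower, the latter SLC16A3, a lactate exporter, at -0.49. Summed markers of photoreceptors (4270 to 4854 CPM in the early and 4358 to 4956 CPM in the late exposure) and of fast muscle (47835 to 54388 CPM and 51273 to 55197 CPM) overlapped between the starts. Taken gene by gene, 9 of 9 liver, 12 of 13 fast muscle and 11 of 15 photoreceptor markers lay lower in the early exposure. Their medians were -0.18, -0.13 and -0.09, and none was called. Of the endothelial and red blood cell markers 3 of 7 each lay lower, and 1 red blood cell marker was called higher. The part of these cell types in the difference was not tested.

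Exposed embryos of the 2 starts showed a difference in all or most of the 8 genes lower in early DMSO. The libraries of 25 nM rotenone are separate from those of the DMSO contrast, but whether pools of the same start share spawnings across substances is not given. In this substance 15 of the 52 genes were lower in the early exposure and none higher (2.38% of all genes were called, 0.911% as lower). All 8 of the genes lower in DMSO were among the 15. EGLN3 was at 24.8, 14.4, 11.7 and 11.3 CPM in early rotenone and at 70.5, 59.0 and 60.5 CPM in late rotenone, a difference of -2.01 ± 0.28, and P4HA1 at 35.3, 30.7, 29.1 and 23.0 CPM against 105, 87.8 and 71.1 CPM, a difference of -1.57 ± 0.14. EGLN1 (ENSDARG00000004632) at -0.80 ± 0.13, BNIP3L (ENSDARG00000028067) at -0.48 ± 0.09 and epoa at -1.10 ± 0.28 were among the other 7.

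For 2.4 µM sorafenib 14 genes were higher and 16 lower in the early exposure (24.7% of all genes), and 6 of the 8 genes lower in DMSO were among the 16, which is 6 of 8 and 6 of 16. EGLN3 was at 17.1, 15.0, 19.7 and 20.7 CPM in early sorafenib against 67.0, 68.0 and 63.7 CPM in late sorafenib, and ANKRD37 at 9.66, 10.6, 12.8 and 14.6 CPM against 36.4, 30.3 and 25.9 CPM. The 14 higher genes were 13 glycolysis genes and EPAS1 (ENSDARG00000057671). In every substance each early library had less EGLN3, P4HA1 and ANKRD37 than each late library at the same age. These genes were taken from the 8 called lower in DMSO, after their values were seen. The DMSO part of the statement follows from that choice, and the share of all genes that do so in every substance was not computed.

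**Figure D5:**
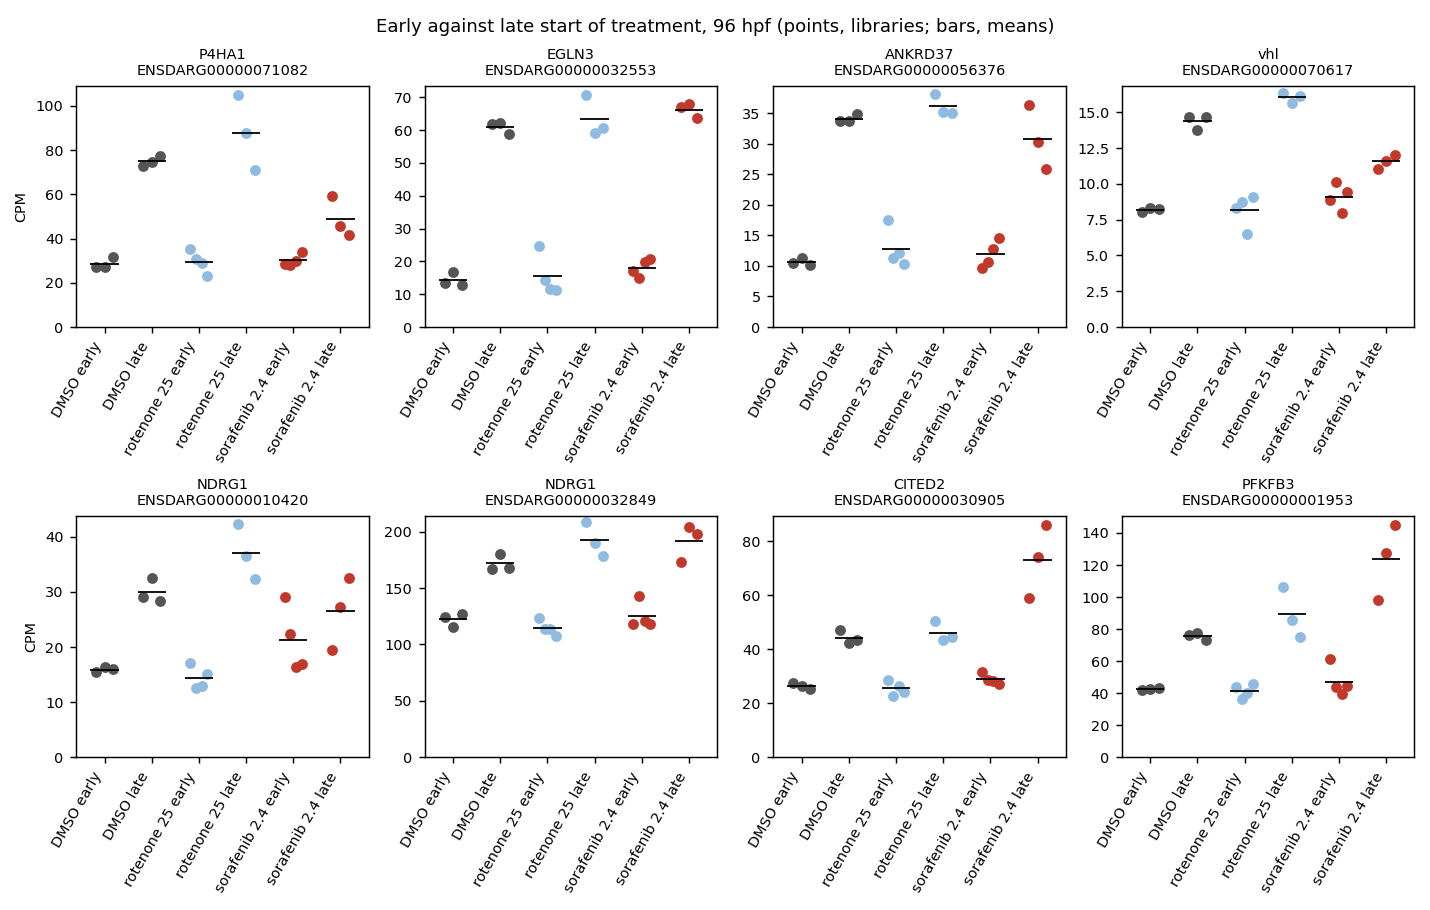
Level (CPM) at 96 hpf of the 8 genes that were lower in early than in late DMSO, in every library exposed to DMSO, 25 nM rotenone or 2.4 µM sorafenib from both starts, with a bar at the group mean. EGLN3, P4HA1 and ANKRD37 lie lower in all early libraries than in all late ones, whichever the substance.

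The 21 genes tested and called in none of the 14 comparisons with DMSO were 6 regulators, 7 targets and 8 glycolysis genes. They include 2 copies of EGLN1, EGLN2, vhl and HIF1A among the regulators, BNIP3, a mitophagy receptor of the mitochondrial outer membrane, both BNIP3L and both NDRG1 copies, epoa and p4ha1a among the targets, and HK2, PFKFB4, GAPDH and SLC2A1 (ENSDARG00000007412) among the glycolysis genes. Several of them moved elsewhere: EGLN2, NDRG1 (ENSDARG00000010420), vhl and epoa differed between ages, and EGLN2 and HK2 between doses.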

How the data were processed

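The deposited values are counts of reads per gene. The authors prepared stranded RNA libraries (NEBNext Ultra II), aligned the reads to GRCz11 with HISAT2 2.1.0, kept alignments with a mapping quality above 30 and counted them with featureCounts 2.0.3. The annotation release and the strand setting of the counting are not given in the sources used here, so reads of overlapping, antisense or near-identical genes may have been assigned to a neighbour or dropped.

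Names were matched ignoring case and, failing that, without the copy letter. As in the study, 1 early DMSO library with 13 counted reads and 1 late DMSO library at 48 hpf were left out, which left 55. Counts were filtered with filterByExpr, scaled by TMM and fitted in edgeR 4.0.16 (R 4.3.3) with 1 mean per group over all 18 groups. The script was tested on simulated counts. Alternatives were DESeq2 1.42.0, RLE scaling, no filter or a mean count minimum of 10, the 48 hpf library added back, the groups compared alone, no replicate 16, 37 or 49, and each library left out in turn. The direct contrasts between starts within sorafenib and rotenone were added after seeing the data.

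Library values are given for up to 4 genes per direction, by lowest p in a comparison with DMSO or by largest change between ages, among those called. Further pathway genes are named up to 2 per direction. Some further pathway genes that this rule would name are not reported here. Genes beyond this were chosen after their values were seen. The members and lists were chosen with earlier results of these data known.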

Additional observations from a re-analysis of the deposited data

Results flagged for a closer look

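In groups of 4 libraries a single library stood clear of the others in 5 of the 104 gene and group combinations examined by Dixon's test, where chance gives about 1 in 20. In early sorafenib hif1al was at 351 CPM in replicate 1 and at 219 to 234 CPM in the others. EGLN1 (ENSDARG00000004632) was at 20.5 CPM in replicate 2 against 17.7 to 18.1 CPM, and NDRG1 (ENSDARG00000032849) at 142.9 CPM in replicate 2 against 118 to 121 CPM. In early rotenone DDIT4 was at 61.1 CPM in replicate 6 against 40.5 to 42.7 CPM, and ENO1 (ENSDARG00000013750) at 72.8 CPM in replicate 10 against 61.8 to 63.2 CPM.

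For 15 genes the log2 change in 2.4 µM sorafenib at 96 hpf differed between the early and the late exposure (edgeR, interaction, early minus late). It was higher in the early exposure for SLC2A1 (ENSDARG00000001437) by 2.65, ENO1 (ENSDARG00000013750) by 1.41, ALDOC (ENSDARG00000057661) by 1.02 and ALDOC (ENSDARG00000019702) by 0.83, PDK2 (ENSDARG00000059054) by 1.00, P4HA1 by 0.69, pgam1b by 0.65, LDHA by 0.63, pgam1a by 0.56 and HK1 by 0.34. It was lower for ADM (ENSDARG00000015263) at -1.97, ADM (ENSDARG00000069027) at -1.42, IGFBP1 at -1.29, ERRFI1 at -0.99 and CITED2 at -0.59.

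For 27 genes the change in late 2.4 µM sorafenib differed between 96 and 36 hpf (later minus earlier age). Among regulators and targets it was -0.64 for hif1aa, -0.73 for vhl, 0.48 for hif1al, -1.64 for ANKRD37, 1.33 for IGFBP1, 1.89 for ADM (ENSDARG00000015263), -1.44 for NDRG1 (ENSDARG00000010420), 1.19 for ERRFI1, -0.67 for P4HA1 and -0.50 for MXI1. At the head of glycolysis it was -2.41 for SLC2A1 (ENSDARG00000001437), -0.42 for HK1, -0.58 for GPI (ENSDARG00000012987), 0.90 for PFKFB3, -0.54 for PFKFB4, -0.62 for ALDOA (ENSDARG00000011665), -0.97 for ALDOC (ENSDARG00000019702), and -0.99 and -0.98 for the 2 copies of TPI1. Further along it was -0.90 for GAPDHS, -0.95 for pgam1a, -0.87 for pgam1b, -1.47 for ENO1 (ENSDARG00000013750), -0.77 for ENO1 (ENSDARG00000022456), -0.67 for PKM (ENSDARG00000099730), -0.87 for LDHA and -2.36 for PDK2 (ENSDARG00000059054). In late 50 nM rotenone P4HA1 had a difference of the same kind, at -1.08.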

How the results depend on the processing

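Over the 293 called values of the listed genes, 3443 of 4052 alternative values kept the direction and the call, 609 kept the direction and lost the call, and 0 reversed. The counts of called genes moved by more than 1.5 times as follows, and the cause was not tested. With the groups compared fitted alone, which leaves fewer libraries to estimate the spread, the count against DMSO was 3 for 1.3 µM and 4 for 2.4 µM sorafenib at 48 hpf, 0 for 2.4 µM sorafenib at 36 hpf, 8 for 25 nM rotenone at 36 hpf, and 0, 0 and 4 for 50 nM rotenone at 36, 48 and 96 hpf. The same setting gave 17 for DMSO between starts, 31 for rotenone between starts, 24 for the sorafenib interaction with start and 6 for that with age, 0 and 1 for the sorafenib doses at 36 and 48 hpf, 0, 0 and 19 for the rotenone doses at 36, 48 and 96 hpf, and 0 for sorafenib against rotenone at 36 hpf. Without replicates 16, 37 and 49 together the count was 4 for 25 nM rotenone at 36 hpf, 1 and 3 for 50 nM rotenone at 36 and 96 hpf, 14 for DMSO and 24 for rotenone between starts, 31 for the sorafenib interaction with start, 2 for the rotenone interaction with age, 10 for the sorafenib doses at 36 hpf, 7 and 9 for the rotenone doses at 36 and 96 hpf, and 7 for sorafenib against rotenone at 48 hpf. DESeq2 gave 10 for 50 nM rotenone at 36 hpf, 4 for the rotenone interaction with age and 20 for the rotenone doses at 36 hpf. Without a filter the rotenone interaction with age gave 0, and with the omitted 48 hpf library added back each sorafenib dose gave 1 at 48 hpf.

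With each library left out in turn the count ran from 3 to 14 for 2.4 µM sorafenib at 36 hpf and from 23 to 30 at 96 hpf, and from 0 to 15 for 50 nM rotenone at 36 hpf and 0 to 2 at 48 hpf. It ran from 9 to 20 for the sorafenib interaction with start, 21 to 32 for that with age, 0 to 10 for the rotenone interaction with age, 1 to 10 and 15 to 21 for the sorafenib doses at 36 and 96 hpf, and 2 to 21, 2 to 7 and 0 to 3 for the rotenone doses at 36, 48 and 96 hpf. Between sorafenib and rotenone it ran from 2 to 18, 1 to 3 and 16 to 24 at 36, 48 and 96 hpf, and within rotenone and sorafenib between starts from 10 to 14 and 21 to 27. Without a library the DMSO group at 48 hpf had 1 left, which was assumed to vary like the other groups. RLE scaling moved the median of no comparison by over 0.1 on the log2 scale. No paired analysis was possible because the replicate numbers name single tubes and are shared by no groups. Genes near 1 CPM, such as epoa and EGLN2, have the widest errors, and groups held 2 to 4 pools.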
